A study of Homo sapiens with 6 samples.

Results

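The genes described here are the TGF-beta ligands TGFB1, TGFB2 and TGFB3, their receptors TGFBR1, TGFBR2 and TGFBR3, and the signal carriers SMAD2, SMAD3, SMAD4 and SMAD7. They were chosen by name, and each of the 10 symbols matched 1 of the 58735 genes in the deposited table. The measurements were RNA-seq read counts from T84, an established human colorectal cancer line of epithelial cells. In 3 libraries (shControl) the cells carried a control short hairpin RNA, and in 3 (shACSL4) a hairpin that lowers ACSL4, which encodes an enzyme activating long polyunsaturated fatty acids. The labels give the genotypes as WT and Acsl4 knockdown, while the series text speaks of a knockout. Both groups were grown in DMEM/F12 with 10% fetal bovine serum and antibiotics, with no added TGF-beta named. The sources used here give no hairpin sequence, no number of hairpins or clones and no time after hairpin delivery. Nothing in the labels ties the 3 libraries of a group to separate cultures. The p-values therefore set the group difference only against the spread among these samples within groups, and that spread may be technical.

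TGF-beta is secreted as a latent complex and must be released before it can act. The free ligand binds TGFBR2, a receptor kinase that recruits and activates TGFBR1, while TGFBR3 (betaglycan) is a coreceptor that presents ligand. Activated TGFBR1 phosphorylates SMAD2 and SMAD3, which join SMAD4 and enter the nucleus. SMAD7 is induced by the pathway and inhibits it. In normal colonic epithelium this pathway restrains growth, and TGFBR2 and SMAD4 are known for being inactivated in colorectal cancers. Secreted TGF-beta also dampens immune responses, and the series title places the study in work on ACSL4 and immunosuppression.

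Of the 10 genes, TGFB1, TGFBR1, TGFBR3 and SMAD4 were lower in shACSL4, TGFB3 was higher, and TGFBR2, SMAD2, SMAD3 and SMAD7 did not pass the test. TGFB2 had too few reads to be tested. The test was edgeR's quasi-likelihood test over 15694 genes, and a gene was called changed at a Benjamini-Hochberg adjusted p under 0.05. By that rule 47.2% of all genes tested were called changed, 24% higher and 23.1% lower. The count of called members is therefore near the background, and the description below rests on the single genes. The groups did not overlap for 5 of the 9 members tested, against 55.1% of all genes tested. Changes beyond 1 on the log2 scale were called lower for 2 of the 9 (5.03% of all genes tested) and higher for 1 (6.86%). The median log2 fold change was -0.14 over the 9 members tested and 0.01 over all genes tested.

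Total counts ranged from 14740383 to 17620630 per library. ACSL4 itself stood at 75.5, 72.2 and 72 CPM (defined next) in shControl replicates 1 to 3 and at 10.3, 9.12 and 11.1 CPM in shACSL4 replicates 1 to 3, so that 13.9% remained. CPM is the count scaled to a common library size with TMM factors, and a log2 fold change is that of shACSL4 relative to shControl. All 11 epithelial marker genes were measured, and their summed level was 6820 to 8024 CPM in shControl and 8049 to 9311 CPM in shACSL4. Of these 11, 6 were called higher and 1 lower (median log2 fold change 0.28), so single markers did not all follow the sum. Over all genes tested 24% were called higher and 23.1% lower. Because TGF-beta genes are active in stromal and immune cells, markers of those cells were summed as well. The sum over 10 fibroblast and stromal markers was 4.05 to 5.99 CPM in shControl and 3.59 to 4.33 CPM in shACSL4, with PDGFRA and THY1 at 0 in every library. The sum over 8 immune markers was 10.6 to 13.2 CPM and 4.67 to 6.2 CPM, with CD3E at 0, and that over 5 endothelial markers 0.74 to 1.25 CPM and 0.705 to 1.08 CPM, with KDR at 0. Of the 8 immune markers, 5 had too few reads to be tested, and of the 3 tested 2 were called lower. Whether these reads came from immune cells was not tested. The part of the lower immune sum in the results below was not tested either.

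Promoter windows are shown for the genes that changed most, TGFB1 and TGFBR3 among the falls and TGFB3 as the rise. A tie between letter content and direction of change was not tested. Each window holds 250 bases before and 50 after a RefSeq transcription start (GRCh38.p14), 5′ to 3′ on the gene's strand. Capitals mark matches on either strand to 6 motifs. The SMAD motifs searched were the core CAGAC and the palindromic element GTCTAGAC. The general promoter motifs were the GC box, spelled GGGCGG, and the TATA box, spelled TATAAA. The others were the AP-1 element TGACTCA, and for the cyclic AMP response element its core TGACGT. The matches printed do not overlap one another. The TGFB1 window is chr19:41353873-41354172 and the TGFBR3 window chr1:91886102-91886401, both on the minus strand. The TGFBR3 gene, with 11 annotated transcripts, extends to 91906335, which is upstream of its window. TGFB3 has 2 windows, chr14:75982962-75983261 (upstream start) and chr14:75981946-75982245 (downstream start), on the minus strand. Gene counts do not tell which start was used for any of these genes.
TGFB1: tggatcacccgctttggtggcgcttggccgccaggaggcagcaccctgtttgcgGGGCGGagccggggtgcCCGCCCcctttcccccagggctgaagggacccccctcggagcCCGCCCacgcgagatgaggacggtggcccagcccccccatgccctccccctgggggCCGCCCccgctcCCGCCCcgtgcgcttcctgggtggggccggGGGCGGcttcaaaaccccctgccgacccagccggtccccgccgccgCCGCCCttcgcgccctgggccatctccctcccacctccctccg
TGFBR3: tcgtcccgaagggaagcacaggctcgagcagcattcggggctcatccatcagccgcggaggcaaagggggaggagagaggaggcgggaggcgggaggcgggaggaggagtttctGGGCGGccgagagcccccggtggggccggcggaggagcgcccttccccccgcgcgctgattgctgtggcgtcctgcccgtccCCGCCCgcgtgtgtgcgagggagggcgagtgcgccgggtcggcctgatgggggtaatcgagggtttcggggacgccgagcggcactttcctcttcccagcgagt
TGFB3 upstream: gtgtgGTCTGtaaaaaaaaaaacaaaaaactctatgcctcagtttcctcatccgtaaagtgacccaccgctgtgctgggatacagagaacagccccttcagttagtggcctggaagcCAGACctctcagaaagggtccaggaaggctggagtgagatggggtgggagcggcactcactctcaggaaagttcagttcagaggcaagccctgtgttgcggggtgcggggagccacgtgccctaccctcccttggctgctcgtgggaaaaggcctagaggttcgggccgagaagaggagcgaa
TGFB3 downstream: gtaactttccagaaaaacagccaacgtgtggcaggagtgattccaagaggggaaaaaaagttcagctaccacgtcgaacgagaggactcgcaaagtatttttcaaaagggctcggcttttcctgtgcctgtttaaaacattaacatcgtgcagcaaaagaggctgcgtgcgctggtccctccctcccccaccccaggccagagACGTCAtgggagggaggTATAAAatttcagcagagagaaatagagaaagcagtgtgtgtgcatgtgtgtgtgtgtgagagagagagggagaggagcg

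The TGFB1 window was 77.3% G and C and held 7 GC boxes, and the TGFBR3 window was 71.7% G and C and held 2. Over 35116 RefSeq promoter windows of this length the median G and C content was 58.7%, and 45% held a GC box. The downstream TGFB3 window held a TATA box starting 30 bases before the start site (11.5% of all windows hold one) and TGACGT in reverse 47 bases before it (7.98% of all windows). The upstream TGFB3 window held CAGAC at 2 places, as 45.3% of all windows hold it at least once. Over the 26 windows of the 10 genes, CAGAC was found in 11, GGGCGG in 11, TATAAA in 3 and TGACGT in 2. TGACTCA was found in 2 (4.95% of all windows) and GTCTAGAC in 0 (0.202% of all windows). GC boxes also stood in windows of TGFBR1 and SMAD4, which were called lower, and of TGFBR2, SMAD2 and SMAD3, which were not called. TATAAA also stood in a window of SMAD7, not called, and of TGFB2, not tested. Several of these windows overlap one another, and a match is a description of letters only.

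**Figure D1:**
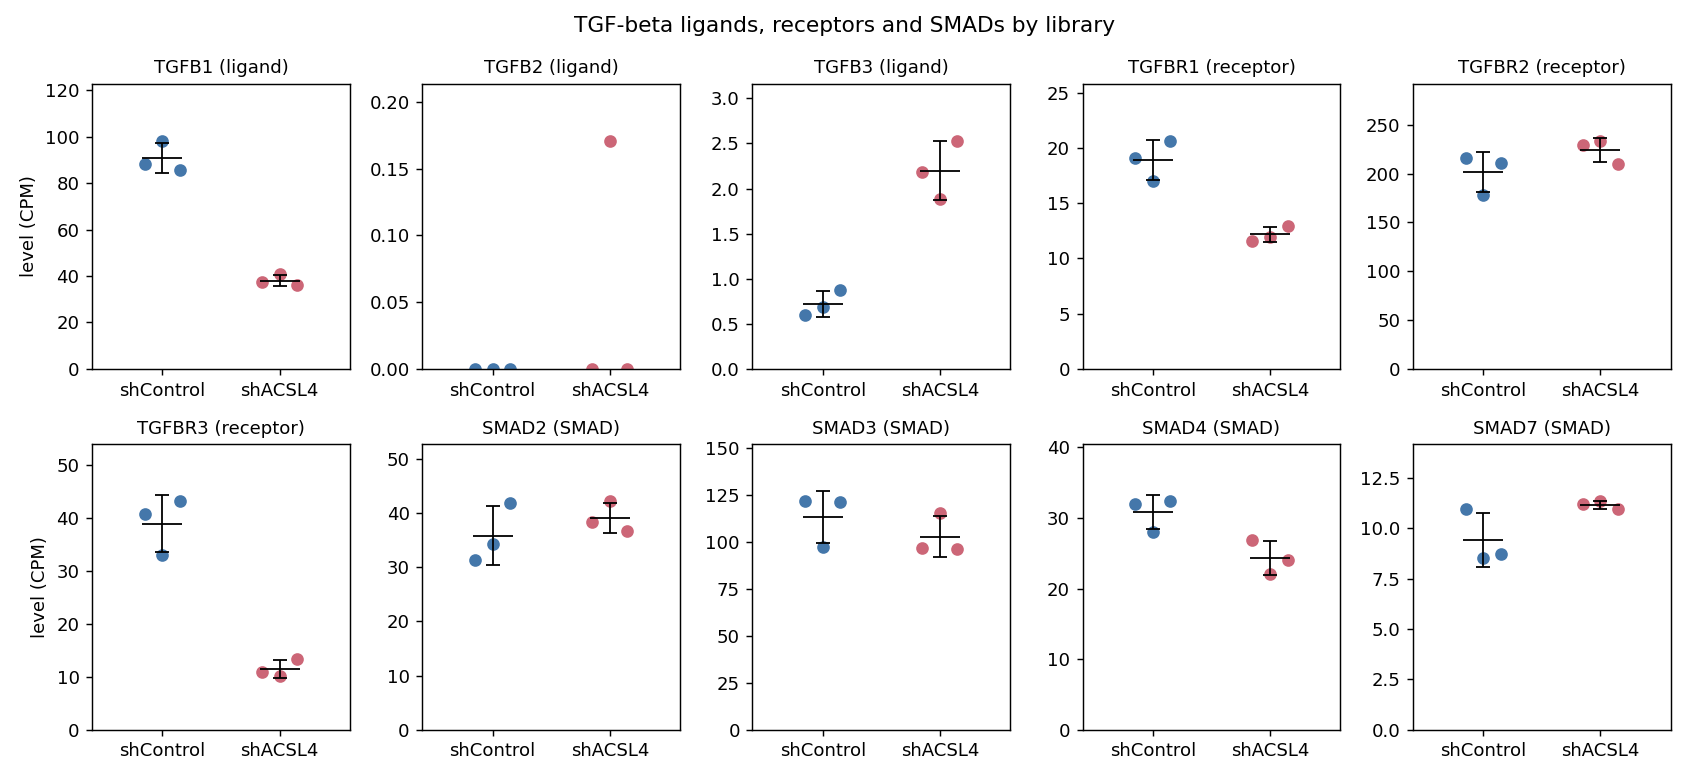
Levels in CPM (vertical axes, each from 0) of the 10 genes in the 3 shControl and 3 shACSL4 libraries; points are libraries, horizontal marks the mean and bars the SD (none drawn for TGFB2). The groups stand apart for TGFB1, TGFB3, TGFBR1, TGFBR3 and SMAD4 and overlap for TGFBR2, SMAD2, SMAD3 and SMAD7.

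Among the ligands, TGFB1 fell and TGFB3 rose. TGFB1 (ENSG00000105329, GRCh38 chromosome 19, 41301587 to 41353911, minus strand), a ligand made by epithelial and immune cells, was at 88.2, 98.2 and 85.8 CPM in shControl replicates 1 to 3 and at 37.4, 40.7 and 35.9 CPM in shACSL4 replicates 1 to 3. Every shACSL4 library lay below every shControl library. Mean levels were 90.8 ± 6.58 and 38 ± 2.44 CPM (SD, n = 3), leaving 41.9% of the shControl level. The log2 fold change was -1.26 (SE 0.09, adjusted p = 1.25e-08). In bulk samples, fewer cells of a type and less RNA per cell cannot be told apart. Over 15 alternative settings the TGFB1 change ranged from -1.61 to -1.14, and the authors' deposited table gives -1.27. The outermost of these values, -1.61, was relative to the running median of the 51 nearest genes tested, which was 0.35 at TGFB1. The genes HNRNPUL1 and CCDC97, which overlap the TGFB1 locus on the opposite strand, took 3377 to 4335 and 343 to 461 reads in shControl, and 4607 to 5625 and 630 to 742 in shACSL4. The sources used here do not give whether counting used strand, and the part of these neighbours in the TGFB1 counts was not tested.

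TGFB3 (ENSG00000119699, chromosome 14, 75958099 to 75982991, minus strand), a ligand prominent in mesenchyme, was scarce in both groups. Its reads numbered 10, 11 and 13 in shControl replicates 1 to 3 and 34, 33 and 40 in shACSL4 replicates 1 to 3. The groups did not overlap. Its level was 0.72 ± 0.142 CPM in shControl and 2.2 ± 0.325 CPM in shACSL4 (SD, n = 3), with a log2 fold change of 1.60 (SE 0.35, adjusted p = 0.0012). TGFB3 reached the filter on low counts in 2 of 3 shControl libraries and in 3 of 3 shACSL4 libraries, and so was tested only because of the group where it is high. With every gene of at least 1 count tested, its change was 1.59 (adjusted p = 0.000303). The change was 0.33 in limma-trend on log2(FPKM + 1) and 1.14 on log2(FPKM + 0.1), where the added value shrinks folds of low genes. IFT43, which overlaps TGFB3 on the opposite strand, took 75, 92 and 76 reads in shControl and 100, 92 and 134 in shACSL4.

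TGFB2 (ENSG00000092969, chromosome 1, 218346235 to 218444619, plus strand) had 3 counts in shACSL4 replicate 2 and 0 in the other 5 libraries. At this depth 3 counts equal 0.171 to 0.202 CPM, so a difference in TGFB2 near or below that level was not detectable. Such limits cover counting error only, because the reads carry no molecular identifiers.

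Levels of different genes were set side by side per length, with the deposited FPKM. TGFB1 held 99.6%, 99.5% and 99.3% of the summed FPKM of the 3 ligands in shControl replicates 1 to 3 and 96.3%, 96.8% and 95.6% in shACSL4 replicates 1 to 3. TGFB3 held 0.523 ± 0.125% and 3.69 ± 0.743% (SD, n = 3). The ligand RNA was thus mostly TGFB1 in both groups. The summed ligand FPKM was 28 ± 2.17 in shControl and 12 ± 0.73 in shACSL4 (SD, n = 3). The fall in the sum therefore followed TGFB1, and the rise of TGFB3 from 0.145 to 0.44 FPKM on average was small beside it.

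**Figure D2:**
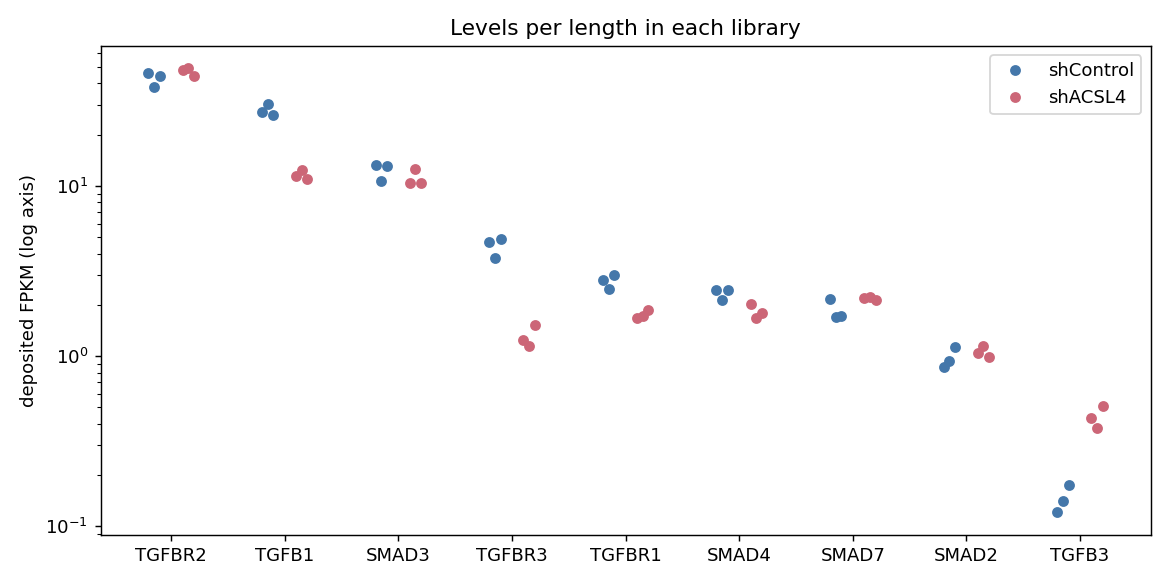
Deposited FPKM (log axis) of 9 genes, ordered by their shControl mean, in each shControl and shACSL4 library; TGFB2 is left out because it is listed at 0 in 5 libraries. TGFBR2 is highest in both groups, TGFB1 drops from the 26.1 to 30.3 range to 10.9 to 12.4, and TGFB3 is lowest of the genes shown.

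Of the receptors, the coreceptor TGFBR3 and the kinase TGFBR1 fell, and TGFBR2 was not called. TGFBR3 (ENSG00000069702, chromosome 1, 91680343 to 91906335, minus strand) was at 40.7, 32.9 and 43 CPM in shControl replicates 1 to 3 and at 11, 10.1 and 13.4 CPM in shACSL4 replicates 1 to 3. All shACSL4 libraries lay below all shControl libraries, with group levels of 38.9 ± 5.31 and 11.5 ± 1.7 CPM (SD, n = 3). Its log2 fold change was -1.76 (SE 0.13, adjusted p = 1.91e-08), a level 3.38-fold lower and the lowest log2 fold change among the 9 members tested.

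TGFBR1 (ENSG00000106799, chromosome 9, 99104038 to 99154192, plus strand), the receptor that phosphorylates SMAD2 and SMAD3, was at 19.1, 17 and 20.6 CPM in shControl and 11.6, 11.9 and 13 CPM in shACSL4 replicates 1 to 3. The groups did not overlap. The log2 fold change was -0.64 (SE 0.12, adjusted p = 0.000499), and it stayed called over the 15 alternative settings, between -0.71 and -0.44.

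TGFBR2 (ENSG00000163513, chromosome 3, 30606502 to 30694142, plus strand), which binds the ligand first, was at 216, 178 and 211 CPM in shControl and 229, 234 and 210 CPM in shACSL4 replicates 1 to 3. The groups overlapped, and the log2 fold change of 0.15 (SE 0.09, adjusted p = 0.189) did not pass the test. With library size alone as scaling, which moved the median of all genes to 0.13, the TGFBR2 change was 0.27 (adjusted p = 0.0249).

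Per length, TGFBR2 was the most abundant of the 10 genes. It held 85.6 ± 0.565% of the summed FPKM of the 3 receptors in shControl and 93.9 ± 0.88% in shACSL4 (SD, n = 3). TGFBR3 held 8.89 ± 0.415% and 2.62 ± 0.516%, and TGFBR1 5.52 ± 0.251% and 3.51 ± 0.37% (SD, n = 3). The summed receptor FPKM was 49.8 ± 4.91 in shControl and 50 ± 2.39 in shACSL4 (SD, n = 3). Within that sum, the FPKM ratio of TGFBR1 to TGFBR2 was 0.0609, 0.0655 and 0.0672 in shControl and 0.0348, 0.035 and 0.0424 in shACSL4 replicates 1 to 3. The ratio of TGFBR3 to TGFBR2 was 0.102, 0.0996 and 0.11 in shControl and 0.0259, 0.0235 and 0.0345 in shACSL4. Both ratios were lower in every shACSL4 library than in any shControl library.

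**Figure D3:**
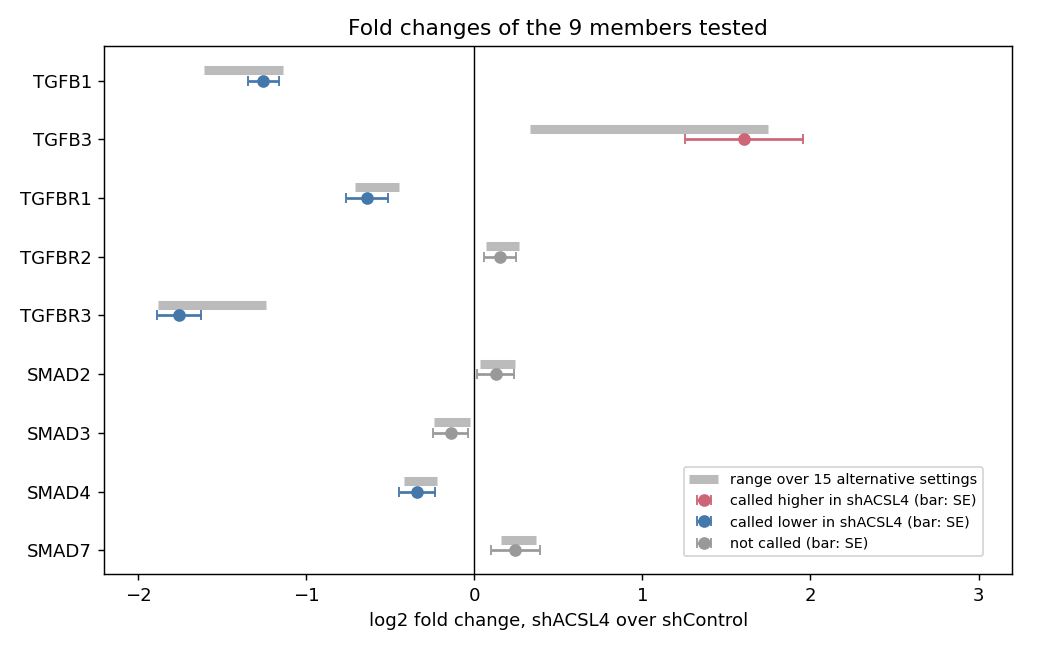
Log2 fold change (horizontal axis) of the 9 members tested; points are edgeR estimates, thin bars their SE and grey bars the range over 15 alternative settings. TGFB1 and TGFBR3 lie below -1 in all settings shown, TGFB3 lies above 0, and SMAD2, SMAD3, SMAD4 and SMAD7 lie within 0.5 of 0.

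Among the SMADs only SMAD4 was called, and its change was small. SMAD4 (ENSG00000141646, chromosome 18, 51028394 to 51085045, plus strand), the partner shared by TGF-beta and BMP signals, was at 32, 28.1 and 32.3 CPM in shControl and 26.9, 22.1 and 24 CPM in shACSL4 replicates 1 to 3. The groups did not overlap, by a margin of 28.1 against 26.9 CPM. The log2 fold change was -0.34 (SE 0.11, adjusted p = 0.0163). The call was lost without shControl replicate 1 (adjusted p = 0.0594), without shControl replicate 3 (0.0508), without shACSL4 replicate 2 (0.0909), with library size alone (-0.22, adjusted p = 0.123) and with limma-trend on log2(FPKM + 1) and log2(FPKM + 0.1) (adjusted p = 0.0693 and 0.0803).

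The receptor-activated SMAD2 and SMAD3 did not pass the test. SMAD3 (ENSG00000166949, chromosome 15, 67063763 to 67195195, plus strand) was at 121, 97.2 and 121 CPM in shControl and 96.8, 115 and 96 CPM in shACSL4 replicates 1 to 3, a log2 fold change of -0.14 (SE 0.10, adjusted p = 0.282). Its shControl replicate 2 lay among the shACSL4 libraries, and without it the change was -0.24 (adjusted p = 0.038). SMAD2 (ENSG00000175387, chromosome 18, 47808957 to 47931146, minus strand) was at 31.4, 34.3 and 41.9 CPM in shControl and 38.4, 42.2 and 36.8 CPM in shACSL4, a log2 fold change of 0.13 (SE 0.11, adjusted p = 0.36). The antisense gene AC087482.1, which overlaps SMAD3, took 14 to 31 reads in shControl and 4 to 6 in shACSL4, few beside the SMAD3 counts. Per length SMAD3 held 70.4 ± 1.18% and 68.5 ± 2.46% of the summed FPKM of the 4 SMADs (SD, n = 3). The table's length for SMAD2 is 36366 bases, the union of all exons of its 12 annotated transcripts, which lowers its FPKM if the longest exons are little used.

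SMAD7 (ENSG00000101665, chromosome 18, 48919853 to 48952052, minus strand), the inhibitory SMAD, was at 10.9, 8.54 and 8.74 CPM in shControl and 11.2, 11.3 and 10.9 CPM in shACSL4 replicates 1 to 3. The highest shControl library reached the lowest shACSL4 library, and the log2 fold change of 0.25 (SE 0.14, adjusted p = 0.175) was not called. Over the 15 alternative settings it ranged from 0.16 to 0.37 and was not called (lowest adjusted p = 0.0526).

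SMAD2, SMAD7 and SMAD4 lie within 3.28 Mb of chromosome 18. Between SMAD2 and SMAD4, 13 other genes were tested, of which 1 was called higher and 2 lower, with a median log2 fold change of 0.01. On the whole chromosome 19 of 204 genes tested were called higher and 83 lower (median -0.22). The stretch that holds the 3 SMAD genes thus had a median nearer 0 than the chromosome as a whole. Relative to the running median of its neighbouring genes, which was -0.05, SMAD4 changed by -0.29.

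**Figure D4:**
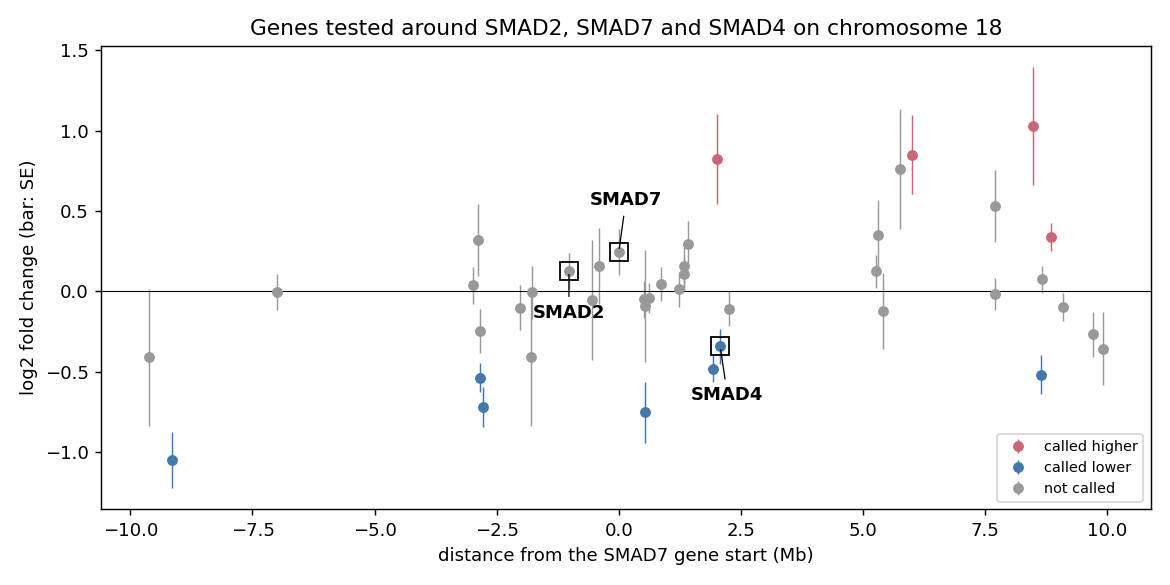
Log2 fold change (vertical axis, bars: SE) of genes tested within 10 Mb of the SMAD7 start on chromosome 18, by distance in Mb; squares mark SMAD2, SMAD7 and SMAD4. SMAD2 (0.13) and SMAD7 (0.25) lie just above 0 and SMAD4 (-0.34) below it.

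In order of FPKM, the shControl libraries ran from TGFBR2 (42.6) through TGFB1 (27.9), SMAD3 (12.3), TGFBR3 (4.44), TGFBR1 (2.75), SMAD4 (2.33), SMAD7 (1.86) and SMAD2 (0.979) to TGFB3 (0.145). SMAD4 and SMAD7 overlapped between libraries, while the other neighbours in that order did not. In shACSL4 the order was TGFBR2 (46.9), TGFB1 (11.6), SMAD3 (11.1), SMAD7 (2.18), SMAD4 (1.83), TGFBR1 (1.75), TGFBR3 (1.3), SMAD2 (1.06) and TGFB3 (0.44). There TGFB1 overlapped with SMAD3, and SMAD4 with TGFBR1. TGFBR3 thus stood above TGFBR1, SMAD4 and SMAD7 in shControl and below all of these in shACSL4.

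The other genes of the pathway were taken from 8 lists, which hold 125 genes beside the 10 members. Of these, 86 were tested, 33 were called higher and 28 lower, with a median log2 fold change of 0.04. Over all genes tested 24% were called higher and 23.1% lower, the background for each count per list below. The called share of these 86 genes was 70.9%, beside 47.2% of all genes tested, and the lists were chosen with earlier results of these data known. Some genes stand in several lists, so counts per list are not separate observations. Among them SMAD6 and PMEPA1 are counted as a rise in each, and COL1A1 is also a stromal marker.

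**Figure D5:**
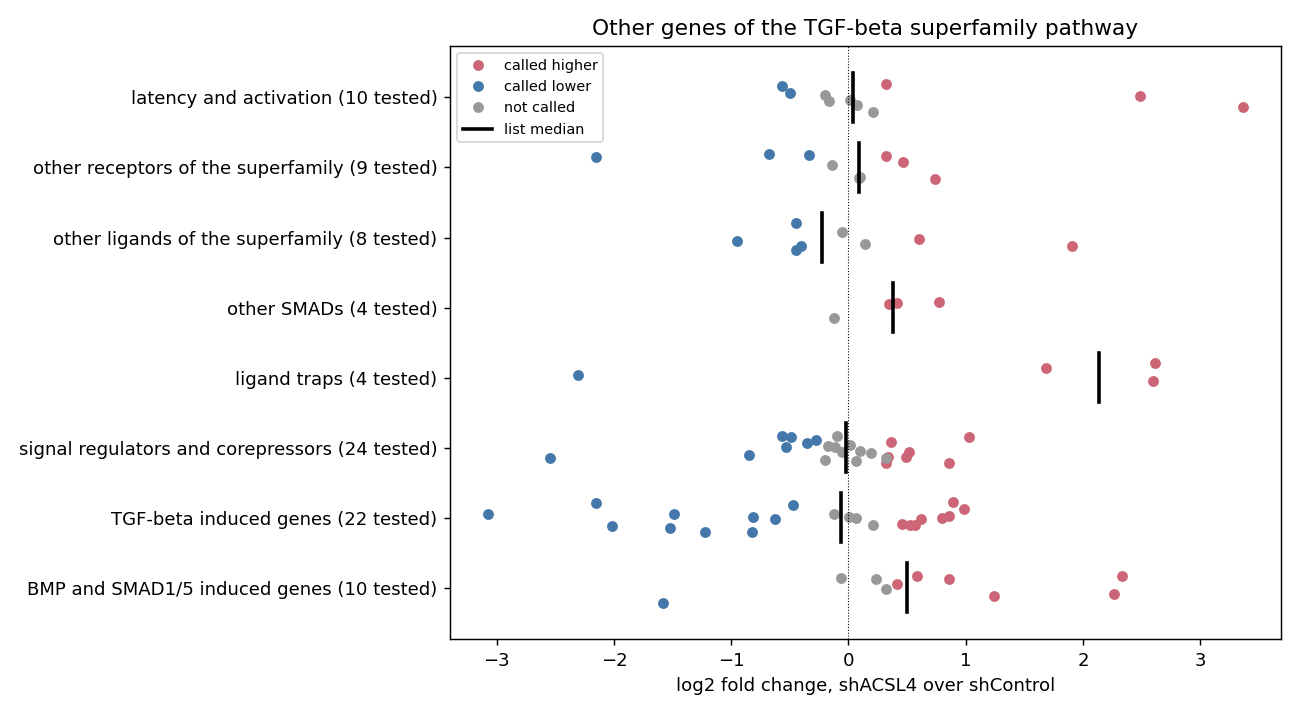
Log2 fold change (horizontal axis) of the tested genes of 8 pathway lists; points are genes, coloured by call, and vertical marks the list medians. THBS1 (3.36) and ITGA5 (-3.07) lie farthest out, and the genes of the TGF-beta induced list fall on both sides of 0.

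Release of TGF-beta from its latent complex depends on binding proteins, integrins and proteases. In that list 3 of 10 genes tested rose, 2 fell and 4 genes were below the filter (median 0.04). THBS1, a thrombospondin known to activate latent TGF-beta, rose from 5.65, 4.58 and 4.3 CPM in shControl to 48, 57.6 and 44.5 CPM in shACSL4 replicates 1 to 3 (log2 fold change 3.36, SE 0.14, adjusted p = 1.75e-11). LTBP1, which tethers the latent complex to the matrix, rose from 3.68 ± 0.77 to 20.7 ± 3.05 CPM (SD, n = 3; 2.48, SE 0.17, adjusted p = 7.2e-09). In limma-trend on log2(FPKM + 1) these changes were 2.06 for THBS1 and 1.33 for LTBP1. The third gene counted as higher, LTBP4 (0.32), was at -0.041 relative to its neighbouring genes (adjusted p = 0.727) and lost its call without shControl replicate 1 (adjusted p = 0.0516). The 2 subunits of the activating integrin alpha-v beta-6 fell, ITGAV by 0.50 and ITGB6 by 0.56 on the log2 scale. ITGAV was at 142, 110 and 159 CPM in shControl and 95.3, 100 and 95.8 CPM in shACSL4, and ITGB6 at 28, 27.4 and 31.1 CPM and at 19, 17.4 and 22.1 CPM. For both the groups did not overlap. ITGB8, another integrin subunit of this list, was at 56 ± 11.3 and 58.8 ± 3.29 CPM (SD, n = 3; 0.07, adjusted p = 0.65) and was not called. FURIN, the protease that cleaves the precursor, was at 314 ± 24.9 and 317 ± 11 CPM (SD, n = 3; 0.01, adjusted p = 0.917), and LTBP3 at 22.3 ± 1.57 and 19.9 ± 2.77 CPM (-0.16, adjusted p = 0.288).

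Of 9 other receptors of the superfamily tested, 3 rose and 3 fell (median 0.09). ACVR1C (ALK7), a type I receptor that signals through SMAD2 and SMAD3, fell from 21.4, 20.5 and 19.9 CPM to 4.36, 4.45 and 5.12 CPM (-2.15, SE 0.14, adjusted p = 2.8e-09). In limma-trend on log2(FPKM + 1) the changes were -1.11 for ACVR1C, -0.42 for ACVRL1 and 0.37 for ACVR2A. Relative to neighbouring genes they were 0.30 for BMPR1A and -0.70 for ACVR2B. ACVRL1 (ALK1) fell by 0.68 on the log2 scale, and ACVR2B by 0.34. The BMP receptor BMPR1A (0.46), the activin receptor ACVR2A (0.74) and ACVR1 (0.32) rose. Over 15 alternative settings ACVR1 lost its call in 9 and ACVR2B in 8. The activin receptor ACVR1B (0.09, adjusted p = 0.445), the BMP receptor BMPR2 (0.10, adjusted p = 0.448) and the coreceptor ENG (-0.14, adjusted p = 0.67) were not called.

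Of the 4 other SMADs, 3 rose and 0 fell, in a count that depends on single libraries. SMAD6, an inhibitory SMAD of the BMP branch, rose from 37.3 ± 0.886 to 49.7 ± 2.18 CPM (SD, n = 3; 0.41, adjusted p = 0.00099). SMAD1 (0.35, adjusted p = 0.0493) and SMAD9 (0.78, adjusted p = 0.0255), which carry BMP signals, were called as well, while SMAD5 was not (-0.12, adjusted p = 0.261). Without shControl replicate 1 or shACSL4 replicate 1 the count of 3 fell to 1, and SMAD1 was called in 5 and SMAD9 in 11 of 15 alternative settings. In limma-trend on log2(FPKM + 1) the SMAD9 change was 0.25 and that of SMAD1 0.23.

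Of 24 regulators of the signal and corepressors tested, 7 rose and 7 fell (median -0.02). CD109, a coreceptor that limits TGF-beta signals, fell from 5.86 ± 0.619 to 0.995 ± 0.154 CPM (SD, n = 3; -2.54, SE 0.26, adjusted p = 5.98e-07), and by -0.54 in limma-trend on log2(FPKM + 1). The corepressor TGIF1 changed by -0.85 (-0.45 relative to neighbouring genes), the receptor-binding STRAP by -0.57 and the ubiquitin ligase SMURF1, which acts with inhibitory SMADs, by -0.35. DAB2, an adaptor linking receptors to SMADs, rose from 15 ± 2.91 to 30.7 ± 2.65 CPM (SD, n = 3; 1.03, SE 0.13, adjusted p = 8.89e-06). Not called were SMURF2 (-0.20, adjusted p = 0.122), the pseudoreceptor BAMBI (0.32, adjusted p = 0.212) and the corepressor SKIL (0.06, adjusted p = 0.538).

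Genes known to be induced by TGF-beta did not move one way. Of 22 tested, 8 rose and 10 fell (median -0.06), and 8 more were below the filter. The largest falls exceeded the largest rise, which was that of CDKN2B (0.99). Beyond 1 on the log2 scale fell ITGA5 and FN1, given next, ADAM19 (-2.02), SNAI1 (-1.52), COL1A1 (-1.49) and PDGFB (-1.23). Over all genes tested, 5.03% were called lower and 6.86% higher beyond 1. ITGA5, the fibronectin receptor subunit, fell from 19.6, 15.9 and 15.7 CPM to 2.44, 2.28 and 1.33 CPM (-3.07, SE 0.20, adjusted p = 3.05e-09), and FN1, fibronectin, from 53.5 ± 8.01 to 12 ± 2.52 CPM (SD, n = 3; -2.15, SE 0.14, adjusted p = 4.14e-09). In limma-trend on log2(FPKM + 1) these changes were -1.36 for ITGA5 and -1.27 for FN1. Of the 10 falls, COL1A1 and ADAM19 passed the filter only through shControl, where they are high. KLF10, an early TGF-beta response gene, changed by -0.82.

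Other genes of the same list rose. TGFBI, a secreted matrix protein named for its induction by TGF-beta, rose from 92, 102 and 93.4 CPM to 144, 153 and 143 CPM (0.62, SE 0.08, adjusted p = 1.57e-05). PMEPA1, a SMAD-induced inhibitor of the pathway, went from 16.3 ± 1.08 to 29.6 ± 6.42 CPM (SD, n = 3; 0.86, SE 0.14, adjusted p = 8.9e-05). TPM1, a tropomyosin, rose by 0.80 and the cell cycle inhibitor CDKN1A by 0.46 on the log2 scale. SKIL and SMAD7, both induced by the pathway and inhibiting it, were not called.

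Of 10 genes known to be induced by BMP through SMAD1 and SMAD5, 6 rose and 1 fell (median 0.50). Over all genes tested 24% were called higher and 23.1% lower. From this list ID4 (-0.06, adjusted p = 0.764), MSX1 (0.23, adjusted p = 0.144) and BAMBI (0.32, adjusted p = 0.212) were not called. ID2, an inhibitor of helix-loop-helix transcription factors, rose from 7.02, 7.47 and 6.86 CPM to 30.6, 34.7 and 37.4 CPM (2.26, SE 0.12, adjusted p = 4.33e-10). ID1 went from 31.8, 32.7 and 36.3 CPM to 69.5, 78.8 and 90.4 CPM (1.24, SE 0.10, adjusted p = 6.9e-08), and ID3 from 32.2 ± 0.655 to 58.2 ± 10.9 CPM (SD, n = 3; 0.85, SE 0.11, adjusted p = 1.35e-05). For ID1, ID2 and ID3 every shACSL4 library lay above every shControl library. ATOH8, also counted among the 6, went from 4, 14 and 6 reads to 44, 46 and 36 (2.33, SE 0.41), but passed the filter in 1 of 3 shControl and 3 of 3 shACSL4 libraries and so was tested only because of the group where it is high. ATOH8 changed by 0.39 in limma-trend on log2(FPKM + 1) and by 1.54 on log2(FPKM + 0.1). The 1 fall was HEY1 (-1.58, adjusted p = 0.0261), which was not called when shControl replicate 3 (adjusted p = 0.0634), shACSL4 replicate 1 (0.123) or shACSL4 replicate 3 (0.0775) was left out, and was below the filter without shControl replicate 1. HEY1 passed the filter in 3 of 3 shControl and 1 of 3 shACSL4 libraries, so it too was tested only because of the group where it is high.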

How the data were processed

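Values for 6 T84 libraries came from 1 table. Per the labels' protocols, 2 ug of Trizol-extracted total RNA was depleted of ribosomal RNA, fragmented and built into libraries by an NEB method. The submitters' processing notes name CASAVA, HISAT2 and GRCh38 and no version of a tool. How reads were counted, and whether by strand, the sources used here do not give. The table holds raw read counts and FPKM per library, per the file headers. The authors also deposited group means of normalized signal, which were not used here, log2 fold changes, p-values and adjusted p-values. Control columns carry the prefix NC and were taken as shControl by number, NC being the only group beside shAcsl4. FPKM lengths equal the union of exons in GENCODE 29 for all 10 members.

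Genes were kept by filterByExpr (minimum count 10) and scaled by TMM, and the groups compared with edgeR 4.0.16 (R 4.3.3), without covariates. Alternatives used DESeq2 1.42.0 and limma 3.58.1, other scalings and filters, a replicate block and leaving out each library. A further alternative was the running median over a window of 51 genes without the gene itself. The steps were tested on simulated data. Members, lists and alternatives were chosen with earlier results of these data known. Pathway genes are named where they rank among the 4 lowest adjusted p in their list, if called, or belong to a set named in any case, of which 1 gene is not reported here and others are left out for length. LTBP4, ITGB8, ACVR1, ACVR2B, BMP1, BMP8B, GDF11, HEY1, ID4, MSX1, COL1A1, ADAM19, SNAI1, PDGFB and CDKN2B were named after their values were seen. CCN1 and CCN2 were matched through older symbols.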

Additional observations from a re-analysis of the deposited data

How the results depend on the processing

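Over 15 alternatives, TGFB1, TGFBR1, TGFBR3 and TGFB3 kept their direction and their call, and SMAD2 and SMAD7 were not called under any. Members called lower, 4 here, were 3 to 5 when 1 library was left out, and members called higher stayed at 1 there. With library size alone as scaling, members called higher became 2, by the addition of TGFBR2, and 65.6% of all calls were higher in shACSL4 against 50.9% here. All genes called changed, 7400 here, were 6122 to 7251 when 1 library was left out, and pathway genes were 28 to 32 higher and 23 to 28 lower. Relative to neighbouring genes, the called genes LTBP4 (-0.041) and BMP8B (0.018) changed sign and lost their calls. Values that were not called and changed sign were BAMBI (-0.017), BMPR2 (-0.0029) and SMURF2 (0.025) under that setting, and GDF15 with library size alone (0.062). With 1 library left out, FURIN ranged from -0.053 to 0.071 and GDF15 from -0.13 to 0.076. The replicate numbers pair no samples by the labels, and deviations of same-numbered libraries correlated at 0.06, -0.0013 and 0.0075. With the replicate block, 7414 genes were called, and the members called were 1 higher and 4 lower as without it. SMAD1, at 0.35, lost its call with the block (adjusted p = 0.0568). Counts near 3 per library limit TGFB2, and TGFB3, FSTL1, SOSTDC1 and ATOH8 rest on few counts. Where a library was left out of a group, the test pooled the spread over both groups.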

Other observations

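Ligands of the wider superfamily moved in both directions. Of 8 tested, 2 rose and 4 fell (median log2 fold change -0.23), and 17 of the 25 in the list were below the filter. The 8 include BMP1 (0.14, adjusted p = 0.313, not called), which is a protease and not a ligand of the superfamily. Both the counts and the median are given with BMP1 included. BMP4, which signals through BMPR1A in the colon, was at 73.8, 61 and 58.6 CPM in shControl and 35.9, 30.7 and 33.5 CPM in shACSL4 replicates 1 to 3 (-0.95, SE 0.10, adjusted p = 1.44e-06). BMP2 fell from 46.9 ± 1.6 to 34.4 ± 2.12 CPM (SD, n = 3; -0.45, adjusted p = 0.000646), and BMP8B (-0.40) and GDF11 (-0.45) fell as well, although BMP8B was not called in 9 of 15 alternative settings and was at 0.018 relative to neighbouring genes. BMP7 rose from 24.3 ± 2.72 to 36.9 ± 2.83 CPM (SD, n = 3; 0.60, adjusted p = 0.000229), and the activin subunit INHBE from 26, 10 and 13 counts to 48, 67 and 74 counts (1.91, SE 0.33, adjusted p = 0.000161). INHBE passed the filter in 2 of 3 shControl and 3 of 3 shACSL4 libraries, so only because of the group where it is high, and changed by 0.76 in limma-trend on log2(FPKM + 1). GDF15, a stress-induced ligand, was at 586 ± 57.3 and 563 ± 93.5 CPM (SD, n = 3; -0.06, adjusted p = 0.717).

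Of 11 secreted ligand traps, 4 were tested, and 3 were called higher and 1 lower. Of these, FSTL1 (over the filter in 0 of 3 shControl and 3 of 3 shACSL4 libraries) and SOSTDC1 (3 of 3 and 0 of 3) were tested only because of the group where each is high, so the tally is partly set by the filter. FSTL3, which binds activin, rose from 6.84, 7.53 and 5.72 CPM to 21.5, 24.5 and 18.6 CPM (1.68, SE 0.15, adjusted p = 1.23e-07). The BMP antagonist GREM1 went from 13, 12 and 11 counts to 66, 102 and 62 counts (2.61, SE 0.29, adjusted p = 2.06e-06). FSTL1 had 2, 8 and 4 counts in shControl and 20, 46 and 24 in shACSL4 (2.59, SE 0.50), and SOSTDC1 had 12, 13 and 10 against 2, 5 and 0 (-2.31, SE 0.65). With limma-trend on log2(FPKM + 1) these changes were 0.32 for GREM1, 0.22 for FSTL1 and -0.30 for SOSTDC1.

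Likeness of profiles was measured as the root mean square difference between centred log2 CPM values over the 6 libraries, among protein-coding genes averaging 50 counts or more. Nearest to TGFB1 were CDC20 (0.0289), ASIC1 (0.0571) and TMEM159 (0.0574), and nearest to TGFBR3 were TNFRSF10D (0.12), IL4I1 (0.12) and TWIST1 (0.13). With 10922 genes to choose from and many genes that differ between the groups, near matches are common.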
